A study of Rattus norvegicus with 12 samples.

Results

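The potassium channel genes of the rat hippocampus were examined in 80 genes, those whose symbol begins with Kcn, goes on with lower-case letters and ends in a number, and whose estimated counts over 6 RNA libraries sum to at least 60. The pattern matched 91 of the 26949 genes in the table, and the count minimum removed 11 of them. All 80 passed the low-count filter of the test, which left 17935 genes in all. The libraries came from hippocampus of male rats, 3 from animals kept in normoxia for 4 weeks (control) and 3 from animals exposed to CIH (chronic intermittent hypoxia, repeated cycles of low oxygen that model sleep apnoea) for 4 weeks. The sources used here give no strain, age or oxygen schedule. They also do not say that each library was made from its own animal, and p-values therefore reflect only how much these 6 libraries vary. Whole hippocampal tissue was used, and in such bulk samples fewer cells of a type and less RNA per cell cannot be told apart.

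Potassium channels let K+ leave or enter the cell and so set the resting potential, the shape and rate of action potentials and the uptake of K+ by glia. Voltage-gated (Kv) channels are tetramers of pore-forming subunits (Kcna, Kcnb, Kcnc, Kcnd, Kcnh and Kcnq). Modifier subunits (Kcnf, Kcng, Kcns, Kcnv) form no channel alone and join Kcnb tetramers. Other pores open to calcium or sodium (Kcnma, Kcnn, Kcnt), rectify inward (Kcnj) or leak at rest (the two-pore-domain Kcnk channels). Auxiliary subunits (Kcnab, Kcne, Kcnip, Kcnmb) bind to the pores and change their gating or transport. Hypoxia is known to close several of these channels in chemosensory and vascular smooth muscle cells, which is why the family is of interest after intermittent hypoxia.

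Each library held between 17170943 and 21941173 estimated counts. Pan-neuronal markers were high in every library, with a summed level of 3294 to 4085 TPM (a length-corrected share of transcripts) over 6 genes. CIH replicate 1 stood apart, with a summed level of dentate granule markers of 96.5 TPM against 253 to 461 TPM in the others, and it was the highest library for 23 and the lowest for 22 of the 80 channel genes (28.8% and 27.5%, against 25.7% and 25.6% of all genes tested). Control replicate 1 and CIH replicate 3 had the highest summed levels of oligodendrocyte markers (11480 and 10690 TPM, against 4160 to 7890 TPM), of choroid plexus markers (62.4 and 65.6 TPM, against 1.99 to 26.3 TPM) and of CA1 markers (834 and 811 TPM, against 331 to 616 TPM). Dentate granule markers were also highest in these libraries (461 and 400 TPM, against 96.5 to 355 TPM). No marker of the 13 lists used was at 0 in every library.

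Channel transcripts were spread over a wide range of levels. The auxiliary subunit gene Kcnab2, which encodes a cytoplasmic beta subunit of Kcna channels, had the highest mean level at 604 TPM and held 15.5% of the summed TPM of the 80 genes. A mean of 100 TPM was reached by 10 genes, among them the modifier Kcng1 at 145 TPM and Kcnq5, Kcna1, Kcnip3, Kcnma1 and Kcnj10 at 127 to 109 TPM. These 10 held 46.1% of the summed level. At the other end 27 genes lay under 10 TPM and 9 under 2 TPM. Summed over all 80 genes the level was 3911 ± 86.3 TPM in control and 3854 ± 275 TPM in CIH (SD, n = 3 each), and the groups overlapped.

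**Figure D1:**
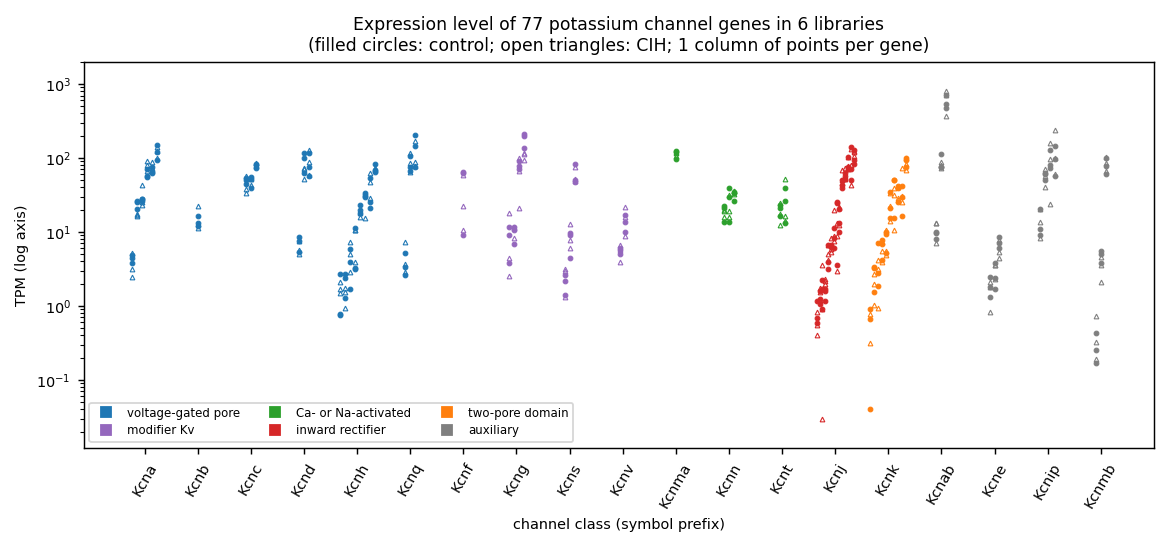
TPM (log axis) of 77 of the 80 genes in each library, in 1 column of points per gene, grouped by symbol prefix and coloured by channel role; filled circles are the 3 control and open triangles the 3 CIH libraries. Kcnab2 lies highest, at a mean of 604 TPM, and within most genes the 2 kinds of symbol mix. The value of 0 of Kcnk16 in CIH replicate 1 has no point on this axis.

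The comparison of CIH with control asked which channel genes and classes differ after the exposure. None of the 80 genes passed the edgeR quasi-likelihood test after Benjamini-Hochberg adjustment over all genes (adjusted p = 1.00 for each, with 0 of 17935 genes or 0% called), and DESeq2 called 0 of the 80 as well. At an unadjusted p under 0.05 there were 2 channel genes (2.5%), Kcng1 and Kcna3, against 1.78% of all genes tested. Groups without overlap, all 3 CIH values on one side of all 3 controls, were found in 4 channel genes (5%), against 5.7% of all genes: 2 lower in CIH, Kcng1 and Kcna3 (2.5%, against 2.65%), and 2 higher, Kcna2 and Kcnj8 (2.5%, against 3.05%). These shares lie near the background. Of the 80 genes 42 had a higher fitted level in CIH (52.5%, against 50.6% of all genes), and the median log2 fold change was 0.01 against 0.00 over all genes.

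Leaving out 1 library gave 5 to 21 channel genes without overlap (6.25% to 26.2%, against 9.79% to 22.4% of all genes). Without control replicate 1 the groups did not overlap in 21 channel genes (26.2%, against 22.4% of all genes), without CIH replicate 1 in 10 (12.5%, against 14.3%) and without CIH replicate 2 in 10 (12.5%, against 18.8%). The share was 7.5% without control replicate 2 (against 11.6%), 6.25% without control replicate 3 (against 9.79%) and 7.5% without CIH replicate 3 (against 12.5%). At an unadjusted p under 0.05 there were 10 channel genes without control replicate 1 (12.5%, against 5.49% of all genes), 4 without CIH replicate 1 (5%, against 2.21%) and 4 without CIH replicate 2 (5%, against 3.35%). None of these passed after adjustment. The smallest adjusted p of a channel gene over the 6 fits with 1 library left out was 0.558, for Kcng1 without control replicate 1.

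**Figure D2:**
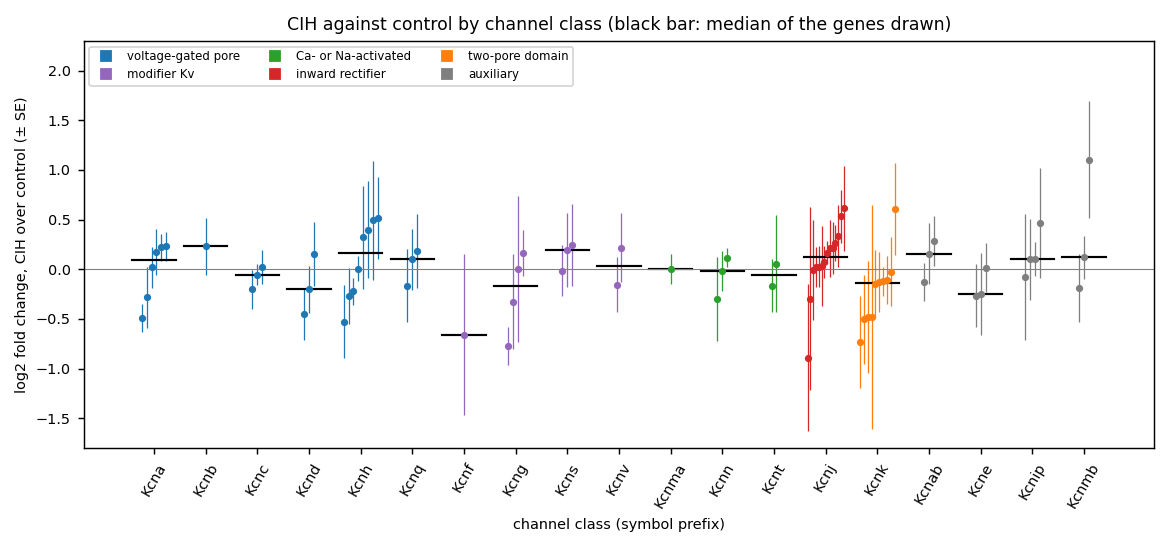
Log2 fold change of CIH over control for 77 of the 80 genes, with its standard error, by symbol prefix; colours give the channel role and black bars the medians of the genes drawn. Most intervals of ± 1 SE cross 0. Kcng1 at -0.77 and Kcna3 at -0.49 lie farthest from 0 relative to their SE.

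Among the modifier subunits Kcng1 (gene ID 296395) stood out. It encodes Kv6.1, which is silent alone and shifts the gating of Kcnb channels. Its level was 133, 199 and 197 CPM (counts scaled to the library total, a unit for comparing libraries within a gene) in control replicates 1 to 3 and 87.2, 112 and 111 CPM in CIH replicates 1 to 3. Every CIH library lay below every control, and control replicate 1 lay closest to the CIH libraries. The means were 176 ± 37.3 and 103 ± 13.9 CPM (SD, n = 3 each), a log2 fold change (CIH over control) of -0.77 (standard error, SE, 0.19), with an unadjusted edgeR p of 0.00481 and an adjusted p of 1.00. Leaving out 1 library moved the log2 fold change between -0.94 and -0.67, and DESeq2 gave an adjusted p of 0.349.

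Some marker lists differed between the libraries beside Kcng1. Of 5 dentate granule markers tested, 5 had a lower fitted level in CIH, with summed levels of 269 to 461 TPM in control and 96.5 to 400 TPM in CIH. Of 7 interneuron markers 6 were lower, with summed levels of 619 to 763 TPM in control and 572 to 638 TPM in CIH. The remaining one, Pvalb, which marks fast-spiking interneurons, was higher in CIH without overlap (log2 fold change 0.42, SE 0.15, unadjusted edgeR p of 0.0238, adjusted p of 1.00). In control replicate 1 the dentate sum was the highest of all libraries (461 TPM), while Kcng1 was the lowest of the controls (133 CPM). CIH replicate 1 was the lowest library in both the dentate sum (96.5 TPM) and Kcng1 (87.2 CPM). In CIH replicate 2 the dentate sum (253 TPM) also lay below every control. In CIH replicate 3 the dentate sum (400 TPM) was above that of control replicates 2 and 3 (269 and 355 TPM), while Kcng1 was lower in it than in each of them. The part of cell makeup in the Kcng1 difference was not tested.

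Of the 10 modifier genes 4 were higher and 6 lower in CIH (median log2 fold change -0.01), and the groups overlapped in all but Kcng1. Kcng2 (Kv6.2) was at 90.8, 94.8 and 115 CPM in the controls and 27.2, 126 and 86.7 CPM in CIH, so that CIH replicates 1 and 3 lay below every control and CIH replicate 2 above. Kcnf1 (Kv5.1) had a log2 fold change of -0.66 (SE 0.81), with 9.14, 68.0 and 66.1 CPM in the controls and 56.2, 23.6 and 11.02 CPM in CIH. Its lowest values thus fell in control replicate 1 and CIH replicate 3, one in each group, and its log2 value ran from -1.47 (without CIH replicate 1) to -0.26 (without CIH replicate 3). Kcns2 (Kv9.2) stood at -0.01 (SE 0.26) and Kcnv1 (Kv8.1) at 0.21 (SE 0.35). Summed over the 10 modifier genes the level was 342, 434 and 468 TPM in control and 280, 341 and 315 TPM in CIH, which left a gap of under 1 TPM between the groups (341.5 TPM in control replicate 1 and 340.8 TPM in CIH replicate 2). Without Kcng1 the sums overlapped, at 204 to 260 TPM in control and 185 to 229 TPM in CIH.

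**Figure D3:**
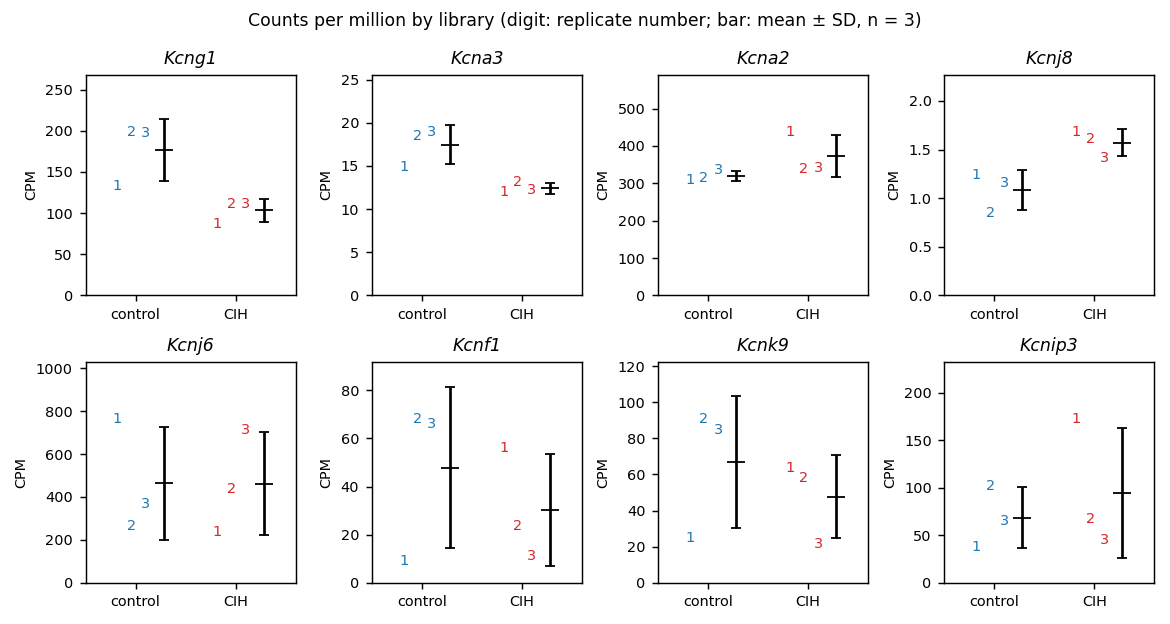
CPM of 8 channel genes in each library; the digit is the replicate number, and the black bar is the mean with its SD (n = 3). In the upper row (Kcng1, Kcna3, Kcna2, Kcnj8) the groups do not overlap. In the lower row (Kcnj6, Kcnf1, Kcnk9, Kcnip3) control replicate 1 lies near CIH replicate 3 and far from the other controls, except that Kcnip3 in control replicate 3 is also low.

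The voltage-gated pore genes numbered 27, of which 15 had a higher and 12 a lower fitted level in CIH (median log2 fold change 0.02). The share higher ran from 11 to 16 of 27 over the alternatives. In the Kcna class, whose channels open at low voltage in axons and delay firing, 4 of 6 genes were higher and 2 lower. Kcna3 (gene ID 29731), which encodes Kv1.3, was at 14.9, 18.5 and 19.0 CPM in the controls and 11.9, 13.1 and 12.2 CPM in CIH. All 3 CIH libraries lay below the lowest control, again control replicate 1. The log2 fold change was -0.49 (SE 0.14), with an unadjusted edgeR p of 0.0103 and an adjusted p of 1.00, and it stayed between -0.59 and -0.43 when 1 library was left out. Kv1.3 is also a channel of microglia and lymphocytes. Of 6 microglial markers 4 had a higher fitted level in CIH (median log2 fold change 0.07). C1qa and Tmem119 were lower. The summed levels overlapped, at 187 to 217 TPM in control and 186 to 225 TPM in CIH. The part of these cells in the Kcna3 value was not tested.

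Kcna2 (gene ID 25468), the Kv1.2 subunit of axons, was at 310, 315 and 336 CPM in the controls and 438, 338 and 342 CPM in CIH. CIH replicate 1 alone was well above the controls, and the remaining CIH libraries exceeded control replicate 3 by a small margin. The log2 fold change was 0.22 (SE 0.14), with an unadjusted edgeR p of 0.154 and an adjusted p of 1.00. It was 0.08 to 0.28 with 1 library left out. On the TPM scale the groups overlapped, with 75.8 TPM in control replicate 3 against 70.3 and 73.0 TPM in CIH replicates 2 and 3, and they also overlapped in CPM without control replicate 2 or without CIH replicate 3. Kcna6 (Kv1.6) stood at 0.23 (SE 0.15) with overlap, and at 0.14 to 0.35 with 1 library left out. On log2(TPM + 1) limma gave Kcna6 0.37, with an unadjusted p of 0.0427 and an adjusted p of 1.00. Kcna1 (Kv1.1), the partner of Kcna2 in axonal tetramers, stood at 0.02 (SE 0.21).

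Kcna2 and Kcna3 lie on the same strand of chromosome 2 as neighbours in one Kcna gene cluster, and their values pointed in opposite directions, so their promoters are shown with that of Kcnj8, the remaining gene without overlap that has an entry in the promoter table. Each runs from 250 bases before to 50 after the RefSeq start in the build GRCr8, 5′ to 3′, and capitals mark the core of the hypoxia response element, searched as ACGTG or GCGTG on both strands (CACGT or CACGC on the other). The positions are chr2:197393280-197393579 (plus strand) for Kcna2, chr2:197320074-197320373 (plus strand) for Kcna3 and chr4:177246499-177246798 (minus strand) for Kcnj8.
Kcna2: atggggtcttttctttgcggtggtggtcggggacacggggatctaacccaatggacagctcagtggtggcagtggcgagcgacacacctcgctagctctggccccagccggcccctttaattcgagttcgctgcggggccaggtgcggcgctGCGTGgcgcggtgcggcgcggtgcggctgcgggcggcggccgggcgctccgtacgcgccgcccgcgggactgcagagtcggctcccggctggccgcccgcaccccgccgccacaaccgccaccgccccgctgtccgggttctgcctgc
Kcna3: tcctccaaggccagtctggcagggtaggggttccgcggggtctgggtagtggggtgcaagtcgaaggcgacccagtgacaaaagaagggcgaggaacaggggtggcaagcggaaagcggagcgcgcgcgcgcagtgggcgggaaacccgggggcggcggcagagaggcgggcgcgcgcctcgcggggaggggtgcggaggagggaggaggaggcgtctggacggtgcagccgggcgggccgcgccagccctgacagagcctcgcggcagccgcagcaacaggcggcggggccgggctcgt
Kcnj8: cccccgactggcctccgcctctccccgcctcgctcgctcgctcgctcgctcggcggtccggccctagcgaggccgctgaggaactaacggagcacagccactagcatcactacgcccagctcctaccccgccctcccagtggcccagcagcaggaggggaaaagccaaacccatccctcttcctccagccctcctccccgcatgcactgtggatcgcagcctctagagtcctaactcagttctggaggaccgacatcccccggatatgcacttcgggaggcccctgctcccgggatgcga

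The Kcna2 window held 1 core, written GCGTG, and the Kcna3 and Kcnj8 windows held 0. All 3 were rich in G and C (73.3%, 74% and 67%). A promoter was listed for 55 of the 80 channel genes. Of these, 26 (47.3%) held at least 1 core of either form, against 41.6% of 33469 promoters of that length in the rat table, and 7 (12.7%) held the ACGTG form, against 19.3%. The median G and C content was 62.3% in the channel promoters and 51.7% in all. Of the 26 channel genes with a core 13 had a higher fitted level in CIH (median log2 fold change 0.01), and of the 29 without one 18 did (median 0.05). A match is a match of letters, and binding was not measured.

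The Kcnc genes encode the fast Kv3 channels of rapidly firing neurons. Kcnc1 was among the steadiest members, at 139 to 164 CPM in the controls and 144 to 148 CPM in CIH (-0.06, SE 0.10).

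The Kcnd genes carry the A-type current of dendrites. Kcnd3 (Kv4.3) was at 78.9, 149 and 151 CPM in the controls and 103, 99.0 and 75.8 CPM after CIH, with a log2 value of -0.45 (SE 0.26, and -0.70 to -0.30 with 1 library left out). Control replicate 1 lay within the CIH range, so the groups overlapped. Kcnd2 (Kv4.2) was at 178, 91.9 and 107 CPM in the controls and 92.6, 141 and 186 CPM in CIH (0.15, SE 0.33). In both genes control replicate 1 lay near CIH replicate 3, low in Kcnd3 and high in Kcnd2. RefSeq lists a gene named Kcnd2l1 that overlaps Kcnd2, and shared reads were not tested.

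Of 8 Kcnh genes (the EAG, ERG and ELK channels) 5 were higher and 3 lower. Kcnh2 (ERG1) averaged 40.0 ± 5.20 CPM over the controls and 34.3 ± 3.05 CPM after CIH (SD, n = 3 per group), with a log2 value of -0.22 (SE 0.13), and Kcnh6 (ERG2) stood at -0.53 (SE 0.36). With 1 library left out they ran from -0.30 to -0.12 and from -0.79 to -0.31. Kcnh7 (ERG3) pointed the other way at 0.52 (SE 0.41), with 184, 87.9 and 73.5 CPM in the controls and 163, 104 and 227 CPM in CIH. Its value was 1.03 without control replicate 1 and 0.21 without CIH replicate 3. Kcnh1 (EAG1) was at 107 to 126 CPM in the controls and at 54.2, 117 and 114 CPM in CIH (-0.27, SE 0.28), so that CIH replicate 1 alone was low. Kcnh3 (ELK2) stood at 0.01 (SE 0.13).

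The Kcnq genes encode the M-current, which restrains repetitive firing. Kcnq3 stood at 0.10 (SE 0.30) and Kcnq5 at -0.17 (SE 0.37). Neither kept its direction when each library was left out.

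Of the 6 calcium- or sodium-activated pore genes 3 were higher and 3 lower (median log2 fold change -0.01). Kcnma1, the pore of the large-conductance BK channel, averaged 214 ± 34.3 CPM over the controls and 215 ± 20.8 CPM after CIH (SD, n = 3 per group), with a log2 value of 0.00 (SE 0.15). The small-conductance gene Kcnn2 (SK2), which shapes the afterhyperpolarisation, was at 37.0 to 39.3 CPM in the controls and 39.1 to 44.1 CPM in CIH (0.11, SE 0.10). It had a narrow spread, and its value ran from 0.06 to 0.14 with 1 library left out. Kcnt1 (Slack), activated by sodium, ranged from 30.6 to 92.0 CPM over the 6 libraries (0.05, SE 0.49).

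Inward rectifiers leaned to higher values in CIH, with 11 of 14 Kcnj genes higher (78.6%, against 50.6% of all genes) and a median log2 fold change of 0.12. Over the alternatives 8 to 13 of 14 were higher, with 8 when control replicate 3 was left out. The summed level of the class overlapped, at 493, 381 and 419 TPM in control and 453, 425 and 493 TPM in CIH. Kcnj8 (gene ID 25472) encodes Kir6.1, the ATP-sensitive channel pore of vascular mural cells. Its counts were 25, 17 and 25 in control and 30, 34 and 28 in CIH, or 1.24, 0.848 and 1.16 CPM against 1.68, 1.61 and 1.42 CPM. Every CIH library lay above every control, on few counts. The log2 fold change was 0.53 (SE 0.27), with an unadjusted edgeR p of 0.0903 and an adjusted p of 1.00, and it ran from 0.38 to 0.64 with 1 library left out. On log2(TPM + 1) it was 0.34.

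The sulfonylurea receptor gene Abcc9, which encodes the mural partner subunit of Kir6.1, was at 16.3 to 18.1 CPM in the controls and 19.8 to 26.5 CPM in CIH. Its log2 fold change was 0.35 (SE 0.15), without overlap between the groups and with an adjusted edgeR p of 1.00. All 8 endothelial and mural markers, Abcc9 among them, had a higher fitted level in CIH, with summed levels of 339 to 433 TPM in control and 393 to 502 TPM in CIH. Whether vessel content had a part in the Kcnj8 values was not tested. The neuronal pair of the ATP-sensitive channel, Kcnj11 (Kir6.2) and Abcc8 (its receptor subunit), stood at 0.34 (SE 0.31) and 0.06 (SE 0.24), and Kcnj11 ran from 0.12 to 0.66 with 1 library left out.

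The G-protein-gated Kcnj channels produce slow inhibition after GABA-B and other receptors. Kcnj9 (GIRK3) was at 39.9, 49.5 and 39.5 CPM in the controls and 65.2, 44.6 and 45.1 CPM in CIH (0.26, SE 0.18, and 0.06 without CIH replicate 1). Kcnj3 (GIRK1) stood at 0.02 (SE 0.20) and Kcnj6 (GIRK2) at -0.01 (SE 0.50). Kcnj6 ranged widely within both groups, at 763, 263 and 367 CPM in the controls and 238, 436 and 714 CPM in CIH. Its highest libraries were control replicate 1 and CIH replicate 3. Kcnj10 (Kir4.1), which clears K+ into astrocytes and is also found in oligodendrocytes, was at 95.7, 83.4 and 99.6 CPM in the controls and 102, 114 and 97.1 CPM in CIH (0.17, SE 0.12, and 0.09 to 0.22 with 1 library left out). All 7 oligodendrocyte markers had a higher fitted level in CIH (median 0.35) and 2 of 6 astrocyte markers did (median -0.04), and the part of these cells in the Kcnj10 value was not tested. Its partner Kcnj16 (Kir5.1) had the lowest fitted value of all members, -0.89 (SE 0.74), with 4.17, 28.2 and 30.0 CPM in the controls and 17.04, 12.1 and 4.55 CPM in CIH. Leaving out 1 library moved it between -1.37 and -0.52. Kcnj12 (Kir2.2) stood at 0.61 (SE 0.43) on the strength of CIH replicate 1 (44.7 CPM, against 13.0 to 21.6 CPM in the others), and at -0.03 without it. Kcnj13 (Kir7.1), typical of choroid plexus, had 1 to 36 counts per library and stood at -0.30 (SE 0.92). In replicates 1 to 3 its counts were 30, 22 and 14 in control and 36, 1 and 12 in CIH. Choroid plexus markers summed to 62.4, 26.3 and 17.6 TPM in control and 1.99, 8.58 and 65.6 TPM in CIH. RefSeq lists Gigyf2 as a gene that overlaps Kcnj13. Neither shared reads nor the part of choroid plexus in the Kcnj13 values was tested.

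Two-pore-domain genes leaned the other way, with 9 of 10 Kcnk genes lower in CIH (median log2 fold change -0.14). The share higher was 10%, against 50.6% of all genes. Over the alternatives 6 to 9 of 10 were lower, 6 without CIH replicate 3. The summed level of the class overlapped, at 206, 255 and 258 TPM in control and 279, 204 and 200 TPM in CIH. In all 10 the log2 range over the controls exceeded the size of the fold change, as it did in 88.1% of all genes tested. The background leak gene Kcnk1 (TWIK-1), the most abundant at 87.3 TPM, stood at -0.12 (SE 0.15, and -0.25 to -0.02 with 1 library left out). Kcnk9 (TASK-3), an acid-sensitive leak channel that takes part in oxygen sensing in the carotid body, was at 24.6, 90.7 and 84.8 CPM in the controls and 63.8, 57.9 and 21.4 CPM in CIH (-0.48, SE 0.56). Its lowest libraries were again control replicate 1 and CIH replicate 3, and its value ran from -0.88 without the former to -0.14 without the latter. Its relative Kcnk3 (TASK-1) was scarcer, at 5.92 TPM, and stood at -0.13 (SE 0.31). The mechanosensitive Kcnk2 (TREK-1) stood at -0.02 (SE 0.34), and Kcnk4 (TRAAK), the one gene of the class with a higher value, at 0.61 (SE 0.46). Kcnk4 was at 55.5 CPM in CIH replicate 1 against 13.0 to 30.8 CPM in the others. Its value was 0.01 without that library and 0.94 without control replicate 2. Kcnk13 (THIK-1), a leak channel of microglia, was at 1.89, 4.09 and 5.79 CPM in the controls and 1.40, 3.13 and 2.53 CPM in CIH (-0.73, SE 0.47). Its value ran from -1.06 without control replicate 1 to -0.34 without control replicate 3, and was -0.35 on log2(TPM + 1).

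Of the 13 auxiliary genes 8 were higher and 5 lower (median log2 fold change 0.10). Kcnab2 stood at 1214, 833 and 928 CPM in the controls and 647, 1446 and 1221 CPM in CIH (0.16, SE 0.31), with both extremes in CIH. The Kcnip genes encode calcium-binding partners of the Kcnd channels. Kcnip3, also known as the transcription repressor DREAM, was at 37.8, 102 and 65.3 CPM in the controls and 172, 66.7 and 44.6 CPM in CIH (0.46, SE 0.55, and -0.30 without CIH replicate 1), while Kcnip4 stood at 0.11 (SE 0.17). Kcnip2, singled out after its values were seen, had 26.7 CPM in CIH replicate 1 and 94.9 to 202 CPM in the others. Kcnmb4, the neuronal beta subunit of BK channels, stood at 0.12 (SE 0.22), beside the value near 0 of its pore gene Kcnma1.

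Some auxiliary genes were near the limit of these libraries. The smooth muscle subunit gene Kcnmb1 had the highest fitted value of all members, 1.103 (SE 0.59), on 10 to 18 counts in 5 libraries and 44.1 estimated counts in CIH replicate 1. Without that library its value was 0.28, and on log2(TPM + 0.1) it was 0.35. Its gene lies within the span of Kcnip1 in RefSeq. Kcne5 stood at -0.27 (SE 0.31, and -0.54 to -0.10 with 1 library left out), and Kcne2, a subunit found in choroid plexus, at -0.25 (SE 0.41) on 18 to 49 counts per library. Just inside the count minimum of the family was Kcnk16, with 66 counts over 6 libraries, and just outside it Kcnk7 with 45 and Kcnn4 with 37.

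Channels known to respond to low oxygen in chemosensory or vascular cells were taken as a list of 13 members (among them Kcna2, Kcna5, Kcns3, Kcnc1, Kcnd1, Kcnd3, Kcnk2, Kcnk3, Kcnk9, Kcnma1, Kcnj8 and Kcnj11). Of these 6 were higher and 7 lower in CIH, with a median log2 fold change of -0.02, and 0 passed the edgeR test. Related genes outside the family were also counted: accessory proteins, HCN channels, clustering proteins, Na+/K+ pumps and K+-Cl- transporters. Of 28 tested genes 16 were higher and 12 lower (median 0.03), and 0 passed. Beside Abcc9, Lrrc38 and Cntn2 were among the genes of this list with the smallest p values, though these were not small. Lrrc38, a BK gamma subunit gene, stood at 0.37 (SE 0.31, unadjusted edgeR p of 0.273) on 11 to 18 counts per library. Cntn2, which anchors Kcna channels beside the node, stood at 0.17 (SE 0.15, unadjusted edgeR p of 0.304).

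The channel genes varied more between libraries than genes in general. Over the 3 controls the log2 range of a channel gene had a median of 0.68, against 0.38 over all genes tested, and over the 3 CIH libraries 0.87 against 0.45. The lowest and highest of the 6 libraries differed by more than 1 log2 unit in 41 channel genes (51.2%), against 27.1% of all genes. The share was 38.1% in the 42 members above 20 TPM and 65.8% in the 38 at or under 20 TPM. The comparison with all genes was not matched by level. The closest pair of libraries over the channel genes was control replicate 1 with CIH replicate 3, one from each group: the SD of their log2 CPM difference was 0.33 over the 80 genes and 0.45 over all genes. For the other 14 pairs the SD was 0.48 to 1.00 over the channel genes and 0.48 to 0.76 over all genes. The same pair was thus the closest over all genes too. Kcnj6, Kcnf1, Kcnj16, Kcnk9 and Kcnd2 showed that pairing in their values. The marker sums of oligodendrocyte, choroid plexus, CA1 and dentate granule cells were highest in the same libraries. Whether cell makeup or dissection had a part in this was not tested.

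**Figure D4:**
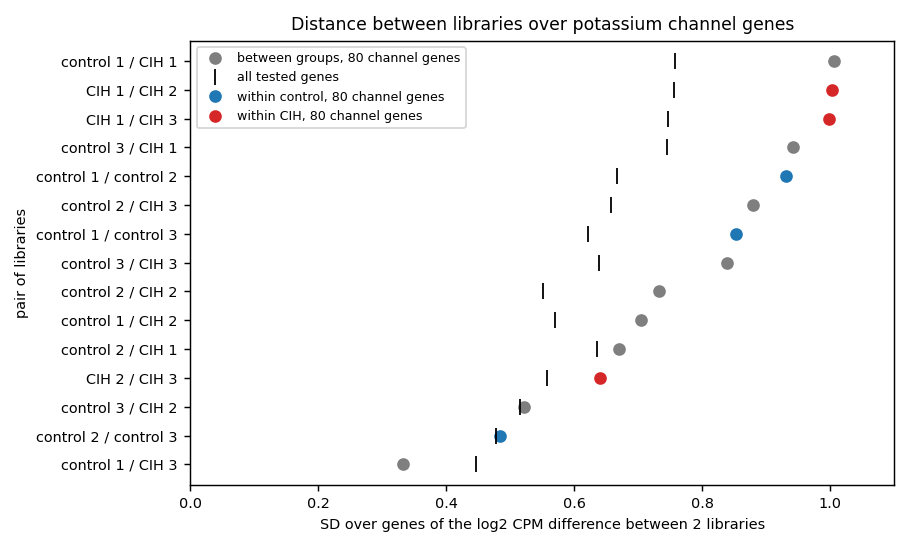
SD over genes of the log2 CPM difference between each 2 of the 6 libraries, for the 80 channel genes (dots, coloured by whether the pair lies within control, within CIH or between the groups) and for all genes tested (bars). Control replicate 1 and CIH replicate 3 are the closest pair, at 0.33 over the channel genes and 0.45 over all genes. The 3 largest values all involve CIH replicate 1.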

How the data were processed

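RNA of 6 hippocampal libraries was used, grouped by title. The small RNA libraries were not used here. For every gene and library the deposited table holds estimated counts and TPM, both made by the authors, per the file headers. The submitters' processing notes name HISAT2 2.2.0, RSEM 1.2.12, Bowtie2 2.2.5 and the build Rnor_6.0. The sources used here do not give their roles, the annotation or the use of strand, so reads of overlapping genes may be mixed (37 of 80 members overlap another gene in RefSeq's GRCr8 table, by position without strand). The deposited estimated counts (16% not whole) were rounded. No 2 libraries agreed within sampling noise (chi-square at least 7.08 per degree of freedom).

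All genes were fitted with edgeR 4.0.16 (TMM, filterByExpr, quasi-likelihood F test, Benjamini-Hochberg, threshold 0.05) in R 4.3.3. SE derives from the fold change and F. CPM uses TMM totals, and the log2 ranges and library distances add a prior count of 2. The code was tested on simulated counts. Alternatives were RLE, no filter, DESeq2 1.42.0, limma 3.58.1 on log2 TPM (pseudocount 1 or 0.1), the replicate block and each library left out. Members, lists and markers were chosen with earlier results of these data known. Genes named with full statistics were the 16 with the smallest p, the most abundant of each class and a fixed set of 24, and of the related list the 4 with the smallest p. Other members were named by level or by their place at the count minimum. Other members and related genes given with values (Kcng2, Kcnip2 and Abcc8), and the marker Pvalb, were chosen after their values were seen. Results for 4 genes are not reported here singly, though counts and sums include them. Marker sums are TPM sums over each list. Python 3.11.15 with matplotlib 3.10.9 drew the figures.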

Additional observations from a re-analysis of the deposited data

How the results depend on the processing

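No potassium channel gene passed after adjustment in any of the 14 settings (0 genes in each, the replicate block included), and the count of channel genes higher in CIH stayed at 39 to 44 of 80. At an unadjusted p under 0.05 there were 2 to 10 channel genes (2.5% to 12.5%, against 0.792% to 5.49% of all genes). Among all genes DESeq2 called 9, limma on log2 TPM 1 with either pseudocount, and leaving out 1 library 0 to 1. Channel genes without overlap numbered 5 to 21 with 1 library left out (6.25% to 26.2%, against 9.79% to 22.4% of all genes). There were 24 (30%, against 30.5%) with control replicate 1 and CIH replicate 3 both left out, a setting chosen after seeing the data. Fewer libraries make such separation easier by construction. Same-numbered libraries did not deviate together (correlations -0.22, -0.05 and -0.18). With 3 libraries per group these values cannot show whether same-numbered samples were handled together. The replicate block left 0 genes called. Leaving out 1 library moved the median log2 fold change of the voltage-gated pores from -0.10 to 0.11 and that of the auxiliary genes from -0.0795 to 0.17.

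Of the 80 genes 33 kept their direction in every setting and 47 turned when 1 library was left out. Among the 46 genes chosen by rule 22 kept it, Kcng1, Kcna3, Kcna2 and Kcnj8 among them. With 1 library left out values of others ran as follows on the log2 scale: Kcna1 -0.14 to 0.20, Kcnab2 -0.0861 to 0.42, Kcnc1 -0.12 to 0.0011, Kcnd2 -0.11 to 0.49, Kcne2 -0.54 to 0.0479, Kcnh1 -0.44 to 0.0081, Kcnh3 -0.0765 to 0.12, Kcnip3 -0.30 to 0.87, Kcnip4 -0.0795 to 0.23, Kcnj12 -0.0266 to 0.89, Kcnj13 -1.72 to 0.27, Kcnj3 -0.14 to 0.22, Kcnj6 -0.47 to 0.55, Kcnk2 -0.27 to 0.27, Kcnk3 -0.35 to 0.0617, Kcnma1 -0.12 to 0.0874, Kcnmb4 -0.0366 to 0.30, Kcnq3 -0.18 to 0.37, Kcnq5 -0.56 to 0.12, Kcns2 -0.22 to 0.28, Kcnt1 -0.61 to 0.46 and Kcnv1 -0.14 to 0.50. Kcnma1 turned to -0.0025 with RLE and with DESeq2. On log2 TPM with a pseudocount of 1 or 0.1 Kcnt1 stood at -0.0461 and -0.0506, Kcnc1 at 0.0257 and 0.0260 and Kcnip4 at -0.0649 and -0.0665. With the replicate block Kcns2 stood at 0.0091, Kcnt1 at -0.0622 and Kcnj6 at 0.0475. With control replicate 1 and CIH replicate 3 both left out Kcnh3 stood at -0.0157, Kcnma1 at -0.0532, Kcns2 at 0.0668, Kcnip4 at -0.0115, Kcnj6 at 0.0895, Kcnj13 at 0.21 and Kcnk2 at 0.20. The cause was not tested.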
